A study of Mus musculus with 6 samples.

Results

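Masp1 and 8 further components of the complement system were examined in an immortalized line of mouse proximal tubular cells in which Glis2 had been stably knocked down. The 9 genes were Masp1, Masp2, C1ra, C4b, C3, Cfb, Serping1, Cd55 and Cd59a, and every array probe annotated to 1 of these symbols was taken. The annotation placed 17 of the 45281 probes on 8 of the 9 genes; no probe was annotated to C3, whose transcript level is therefore not analysed here. The genes were chosen with the results of this same comparison known, in which Masp1 had 1 of the largest differences. Their values are accordingly given as a description, without a test, and tests are given only for genes outside the 9.

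All cells were of the C56BL/6 background, in the labels' spelling, and were harvested 7 days after lentiviral infection. The control group was 3 arrays from cells with an anti-GFP shRNA, and the knockdown group was 3 arrays from cells with an anti-Glis2 shRNA; an shRNA is a short hairpin that cells cut into a small RNA directed against a transcript. Total RNA was labelled with Cy3 and hybridised to an Illumina bead array, on which each probe gives an intensity in linear units that includes background. Whether the 3 arrays of each group represent separate infections, and whether a group was 1 clone or a pool, is not stated in the labels. The p-values therefore reflect spread among these arrays alone and that spread may be technical. Loss of Glis2, off-target action of the hairpin and prior differences between the infected cultures cannot be told apart.

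Complement is a cascade of plasma and cell-surface proteins that marks targets for removal and can form a pore in membranes. The classical route starts with C1q and its proteases C1r and C1s, the lectin route with mannose-binding lectins, ficolins and collectins and the proteases MASP-1 and MASP-2, and the alternative route with C3, factor B and properdin. All routes lead to cleavage of C3, and host cells are shielded by inhibitors such as CD55 and CD59. Most plasma complement is made in the liver, but kidney tubular cells are known to produce some components locally.

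A probe was taken as above background on an array when its intensity exceeded 139, which is the most frequent intensity of the arrays, 114, plus 3 SD, with the SD taken from values under that peak. Between 39.8% and 39.9% of probes exceeded it on each array. Over all probes, which are not independent of each other, arrays of the same group correlated at r = 0.995 and arrays of different groups at 0.980 to 0.982. The targeted gene was lower in the knockdown: Glis2 had 278, 234 and 230 in control and 169, 161 and 176 in knockdown cells, a log2 difference of -0.55 ± 0.092 (SE) with limma's adjusted p = 6.32e-05. Its second probe, ILMN_2745305, had 216, 212 and 191 against 145, 177 and 161, a log2 difference of -0.36. With the most frequent intensity subtracted from both means, the knockdown level on these probes was 41.1% and 51.0% of control. Of 7 proximal tubule markers measured, only Aqp1, the water channel, was above background, whereas Lrp2, Cubn, Slc34a1, Slc5a2, Slc22a6 and Anpep were not. Among 4 markers of other tubule segments, Slc12a3 had 1328, 1192 and 1212 in control and 1091, 1259 and 1093 in knockdown cells. Slc12a1 was just above background in the mean, while Umod and Aqp2 were at background. The epithelial markers Krt8, Krt18 and Cdh1 were above background on all 6 arrays, Cdh16 on all control arrays and 1 knockdown array, and Epcam on 3 of the 6; limma called Krt8 and Krt18 higher and Cdh1 and Cdh16 lower in the knockdown. No endothelial marker of the 4 tested (Pecam1, Cdh5, Kdr and Emcn) was above background in the mean of the 6 arrays. Kdr exceeded the limit on control replicate 3 and knockdown replicate 1, at 142 and 150.

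Masp1 encodes the serine protease that activates the lectin pathway, and by alternative splicing also MASP-3, a related protease, and a shorter form without a protease domain. The sources used here do not say which of these forms each of its 3 probes reads. The brightest probe, ILMN_1250116, had intensities of 4084, 3605 and 3300 in control cells and of 255, 281 and 268 in knockdown cells. All 6 values were above background, and the lowest control value was far above the highest knockdown value. The means were 3663 ± 395 and 268 ± 12.7 (SD, n = 3 arrays each), a log2 difference of -3.77, so that the knockdown intensity was 7.32% of control. With the most frequent intensity subtracted from both means it was 4.35% of control, or 23.0-fold lower in place of 13.7-fold. The log2 difference was -4.52 with background subtracted in each array, -1.43 with the mean of the 3 probes, and -3.84 to -3.69 when 1 array at a time was left out. Because the RNA came from whole cultures, fewer cells with the transcript and less of it per cell cannot be told apart.

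The second Masp1 probe, ILMN_1250760, was much closer to background. It had 153, 176 and 179 in control cells, all above the limit, and 121, 127 and 126 in knockdown cells, all under it. The groups did not overlap, and this probe was at least 1.22-fold lower, with the background limit in place of the knockdown values. The third probe, ILMN_2660969, lay under the limit on all 6 arrays, from 108 to 134 in control and from 108 to 122 in knockdown cells, and its groups overlapped. The large difference of Masp1 therefore rests on 1 probe, with a smaller one in the same direction on a second. Levels of different probes are not comparable with each other.

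**Figure D1:**
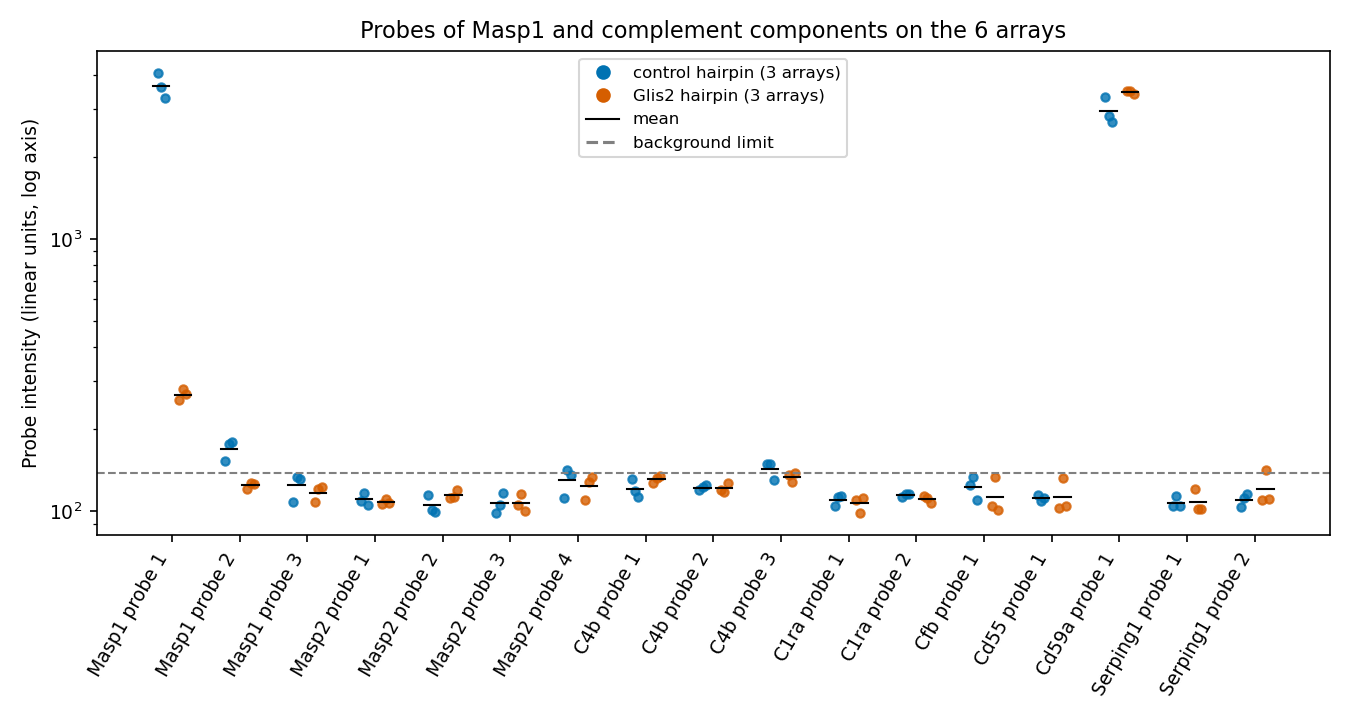
Intensity (linear units, log axis) of the 17 probes of 8 complement genes on 3 control arrays (blue) and 3 knockdown arrays (orange), with group means as black lines and the background limit of 139 as a dashed line. Only the brightest Masp1 probe and the Cd59a probe lie above the limit on all 6 arrays; on that Masp1 probe every knockdown array is lower than every control array.

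Masp2, the protease that cleaves C4 and C2 after activation of the lectin pathway, was at or near background on all 4 of its probes. The brightest, ILMN_3101073, had 112, 141 and 136 in control and 110, 128 and 134 in knockdown cells, so that 1 control array exceeded the limit. The probes ILMN_1216142, ILMN_1260242 and ILMN_3027989 lay under it on all 6 arrays, between 98.6 and 120. The groups overlapped on all 4 probes. Thus of the lectin pathway's proteases, only Masp1 gave a signal that could be compared between the groups.

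The classical pathway components were likewise at background. C1ra encodes C1r, the first protease of the C1 complex, and its probe ILMN_2770475 had 113, 116 and 116 in control and 114, 112 and 107 in knockdown cells, while ILMN_1218434 ranged from 98.5 to 114. C4b encodes complement C4, the substrate of both C1s and MASP-2. Its probe ILMN_3049559 had 148, 149 and 130 in control and 135, 128 and 138 in knockdown cells, with 2 control arrays above the limit and overlapping groups. Its probes ILMN_2632563 and ILMN_2632567 stayed under the limit on all 6 arrays, between 113 and 134. C4b has a near-identical neighbour, C4a, and these probes may not tell the genes apart.

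Of the alternative pathway, Cfb, which encodes factor B, the protease of the C3 convertase, had 1 probe, ILMN_1230853. Its intensities were 124, 133 and 110 in control and 105, 133 and 101 in knockdown cells, all under the limit. Serping1 encodes the C1 inhibitor, a serpin that blocks C1r, C1s and the MASPs. Its probe ILMN_2913166 had 104, 111 and 115 in control and 110, 142 and 111 in knockdown cells, where 1 knockdown array exceeded the limit, and ILMN_2775421 ranged from 102 to 120. Cd55 encodes decay-accelerating factor, which dissociates C3 convertases on the cell surface. Its probe ILMN_1248714 had 115, 109 and 111 in control and 102, 132 and 104 in knockdown cells. None of the 4 probes of these 3 genes separated the groups.

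Across Masp2, C4b, C1ra, Cfb, Cd55 and Serping1, 13 probes gave 78 array values, of which 4 exceeded the limit, and the values ran from 98.5 to 149. Their log2 differences lay between -0.12 and 0.13. At these intensities a transcript was not detectable above background, which does not show that it was absent, and a difference between the groups could not have been seen if it lay below the limit in both. Moving the limit to 2 or 5 SD, chosen after seeing the data, left the same count of 2 probes of 2 genes above it on all 6 arrays.

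Cd59a, which encodes the membrane inhibitor of the terminal pore, was the other component clearly above background. Its probe ILMN_1228942 had 3329, 2834 and 2690 in control cells and 3497, 3511 and 3425 in knockdown cells. The 3 knockdown values were close together and all above the control values, although the highest control array lay near the lowest knockdown array. The means were 2951 ± 335 and 3478 ± 46.3 (SD, n = 3 each), a log2 difference of 0.24, which ran from 0.18 to 0.33 when 1 array was left out. The Cd59a probe is the only probe for this gene.

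Over the probes of the 8 measured components, the groups did not overlap on 3 of 17, with 2 lower and 1 higher in the knockdown; on 26.3% of all probes they did not overlap. Since the genes were chosen with this comparison known, nothing is read from this count.

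Complement genes outside the 9 were grouped by role and tested with limma, a gene being called at an adjusted p under 0.05. Over all 19057 genes 22.5% were called, 11.4% lower and 11.2% higher. Among the 49 of them that were measured, 10 were above background in the mean of the 6 arrays, 2 were called higher and 2 lower, with 45 not called. That is 8.16% called, against 22.5% overall; among those above background it is 4 of 10, against 43.7% of the 9516 genes above background. The median log2 difference of the 49 was 2.1e-06, beside 0.0040 over all genes. Most of the pathway was therefore at background in both groups, and the 4 called genes were properdin and 3 regulators.

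Cpn1, the catalytic subunit of carboxypeptidase N, which inactivates the C3a and C5a fragments, rose most. Its brightest probe had 441, 330 and 360 in control and 1748, 1815 and 1842 in knockdown cells, with the groups far apart. The log2 difference was 2.27 ± 0.099 (SE) with limma's adjusted p = 1.20e-14. Its probe ILMN_2796199 had 174, 135 and 171 against 383, 403 and 553, in the same direction, while ILMN_2552569 ranged from 128 to 150 in control and from 148 to 162 in knockdown cells. The call of Cpn1 held under all 15 alternatives, with log2 differences from 1.29, the mean of its probes, to 2.70, with background subtracted. Cpn2, the other subunit, was not above background.

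Cd59b, the paralog that lies next to Cd59a and encodes a second CD59, also rose. Its brighter probe had 444, 459 and 364 in control and 681, 585 and 558 in knockdown cells, which did not overlap. The log2 difference was 0.53 ± 0.10 (SE) with limma's adjusted p = 0.000281, and its second probe, ILMN_2792143, lay under the limit on all 6 arrays; the mean of both gave 0.25. With background subtracted limma's adjusted p was 0.0807, the highest of the 15 alternatives, of which 0.000171 was the lowest. The CD59 genes are close copies, and how well the probes tell them apart is not known from the sources used here.

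Susd4, a membrane protein that inhibits C3 convertases, fell. It had 641, 595 and 588 in control and 379, 388 and 450 in knockdown cells, with no overlap, a log2 difference of -0.59 ± 0.091 (SE) and limma's adjusted p = 2.20e-05. Cfp, which encodes properdin, the stabiliser of the alternative C3 convertase, fell from 303, 272 and 241 to 188, 177 and 166, a log2 difference of -0.62 ± 0.095 with limma's adjusted p = 2.07e-05. With background subtracted, the log2 difference of Cfp was -1.32. Cfp lies on the X chromosome among genes that were also lower. Of its 24 nearest genes above background 18 were called lower, with a median log2 difference of -0.75, whereas 22.2% of all genes above background were called lower. The part of those neighbours in the difference of Cfp was not tested.

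Of the remaining regulators, C1qbp, a mitochondrial protein that can bind C1q, had 3560 ± 545 and 3960 ± 265 (SD, n = 3), and Cr1l, the rodent regulator Crry, had 242, 244 and 239 in control and 218, 249 and 228 in knockdown cells. Limma called neither. Limma called 0 of the 12 recognition molecules, among them the C1q chains, the mannose-binding lectins and the collectins (0 at an unadjusted p under 0.05), and of these the ficolins Fcna and Fcnb alone were above background in the mean. It called 0 of the 6 terminal pathway genes (0 at an unadjusted p under 0.05); of the 2 above background, C8b and C8g, the latter had 217 ± 3.62 and 188 ± 39.0. All 9 receptors for complement fragments, including C3ar1 and C5ar1, were under the background limit in the mean, and limma called 0 of them (1 at an unadjusted p under 0.05).

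**Figure D2:**
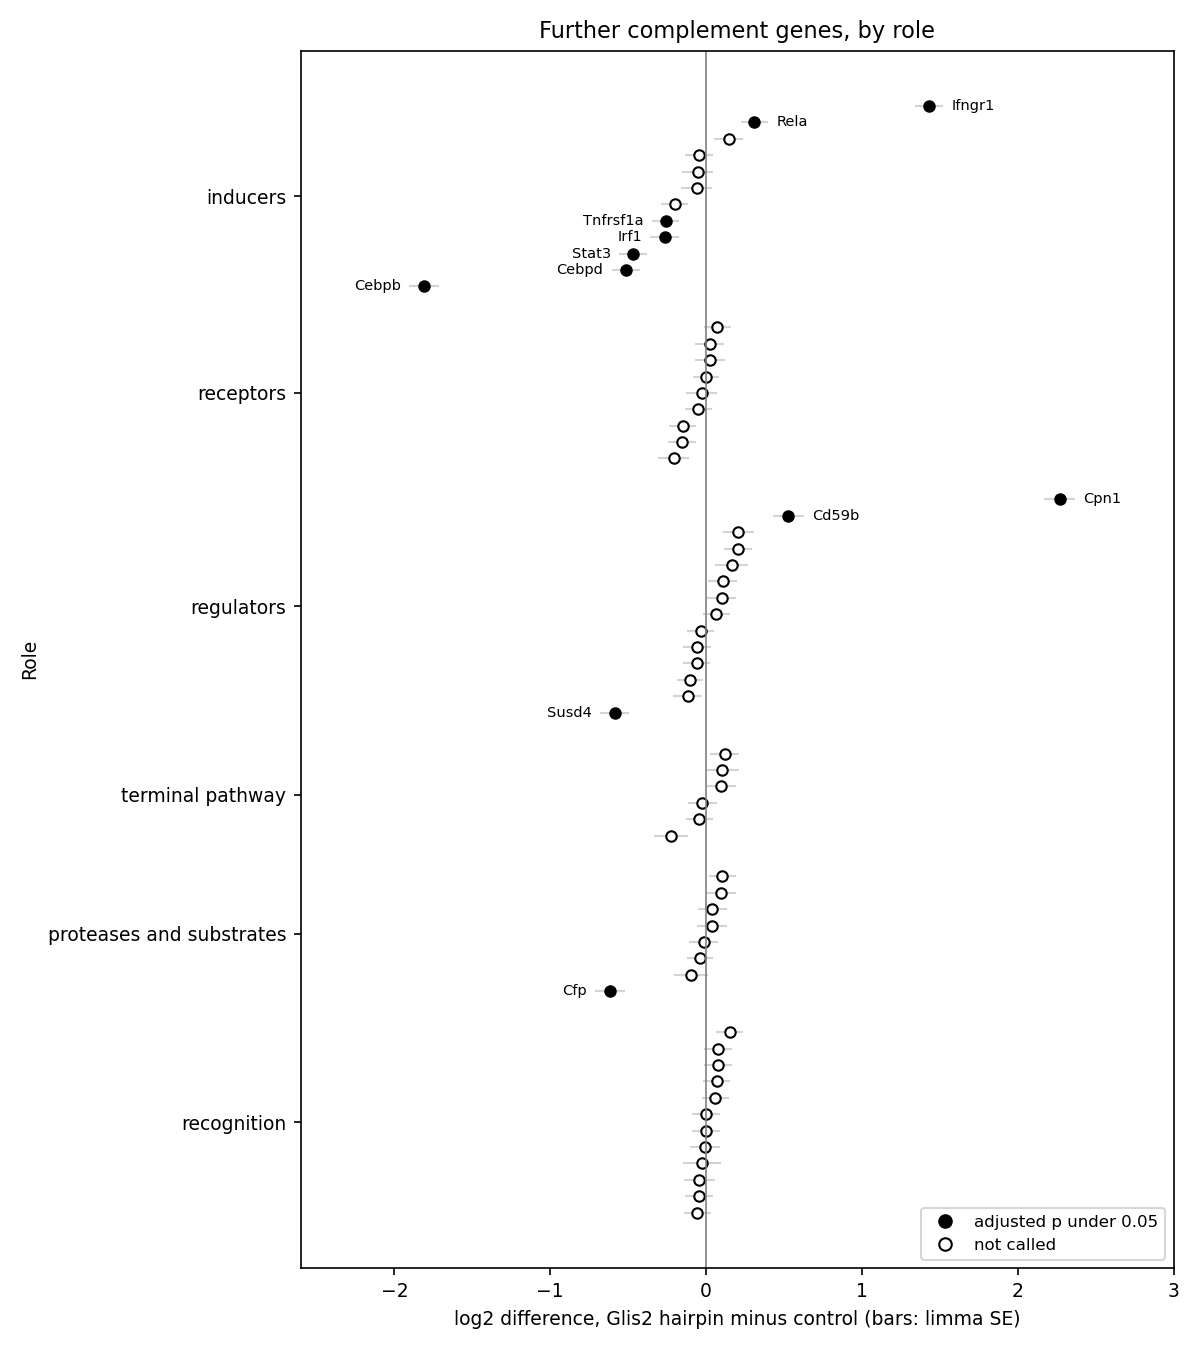
Log2 difference between knockdown and control (x axis; bars are limma's SE) for the 61 measured genes of 6 lists fixed by role (y axis), with called genes filled and named. Cpn1 and Ifngr1 lie farthest to the right at 2.27 and 1.43, Cebpb farthest to the left at -1.81, and the receptor, terminal and recognition lists hold no called gene.

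Factors known to raise the transcription of complement genes were taken as a further list, because C3, Cfb and C4b are induced by interleukin, interferon and NF-kappaB signals. Among 12 measured factors, 2 were called higher and 5 lower, with 5 not called; 10 were above background, and the list's median log2 difference was -0.13. That is 58.3% called, and 7 of 10 above background, beside 22.5% and 43.7% over all genes. The count was 4 without knockdown replicate 2 and 4 after normexp correction. Calls over all 19057 genes also fell in these settings, from 4291 to 3754 and 2567 respectively.

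Cebpb, a transcription factor of the acute-phase response, fell most in this list, from 5499, 5157 and 6484 in control to 1603, 1603 and 1660 in knockdown cells. The log2 difference was -1.81 ± 0.093 (SE) with limma's adjusted p = 2.90e-13. Its relative Cebpd had 1451, 1520 and 1422 against 1090, 1070 and 921, a log2 difference of -0.52 ± 0.090 with limma's adjusted p = 0.000100; the mean with its second probe, which was at background, gave -0.26. Stat3, which carries signals of the interleukin-6 family, had 1885, 1672 and 1622 against 1254, 1202 and 1277, with no overlap and a log2 difference of -0.47 ± 0.089 (limma's adjusted p = 0.000237). A second Stat3 probe, ILMN_3096144, did not overlap either and had a log2 difference of -0.32, whereas the groups overlapped on the third.

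Ifngr1, the ligand-binding chain of the interferon-gamma receptor, rose from 779, 724 and 658 to 1791, 2031 and 1996, a log2 difference of 1.43 ± 0.092 (SE) with limma's adjusted p = 1.73e-11. Its partner chain Ifngr2 had 368 ± 31.0 and 355 ± 10.7 (SD, n = 3) and was not called. Rela, the p65 subunit of NF-kappaB, rose by 0.31 on the log2 scale (limma's adjusted p = 0.00914), from 4112 ± 142 to 5102 ± 276. The call of Rela was lost without knockdown replicate 2 and with normexp correction, where limma's adjusted p was 0.0574 and 0.129; over the alternatives it ran from 0.00326 to 0.129. Tnfrsf1a, the main TNF receptor, and Irf1, an interferon-induced factor, fell by 0.26 and 0.27 on the log2 scale at limma's adjusted p = 0.0314 and 0.0376. Of the 4 other Irf1 probes, all with overlapping groups, ILMN_2599782 had 1677, 1696 and 1640 in control and 1723, 1549 and 1753 in knockdown cells, and the mean of all Irf1 probes gave a log2 difference of -0.09. Of the 2 other Tnfrsf1a probes, ILMN_2469333 did not overlap and had -0.24, while ILMN_1241228 overlapped; with background subtracted Tnfrsf1a had -0.46. The calls of Tnfrsf1a and Irf1 were lost in 7 and 8 of the 15 alternatives, over which the adjusted p ran from 0.0237 to 0.129 and from 0.0171 to 0.467. The arrays that ended the call of Tnfrsf1a when left out were control replicates 1 and 3 and knockdown replicates 2 and 3 (limma's adjusted p from 0.0575 to 0.129). For Irf1 they were control replicates 1 and 2 and knockdown replicates 1, 2 and 3 (limma's adjusted p from 0.0581 to 0.249).

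**Figure D3:**
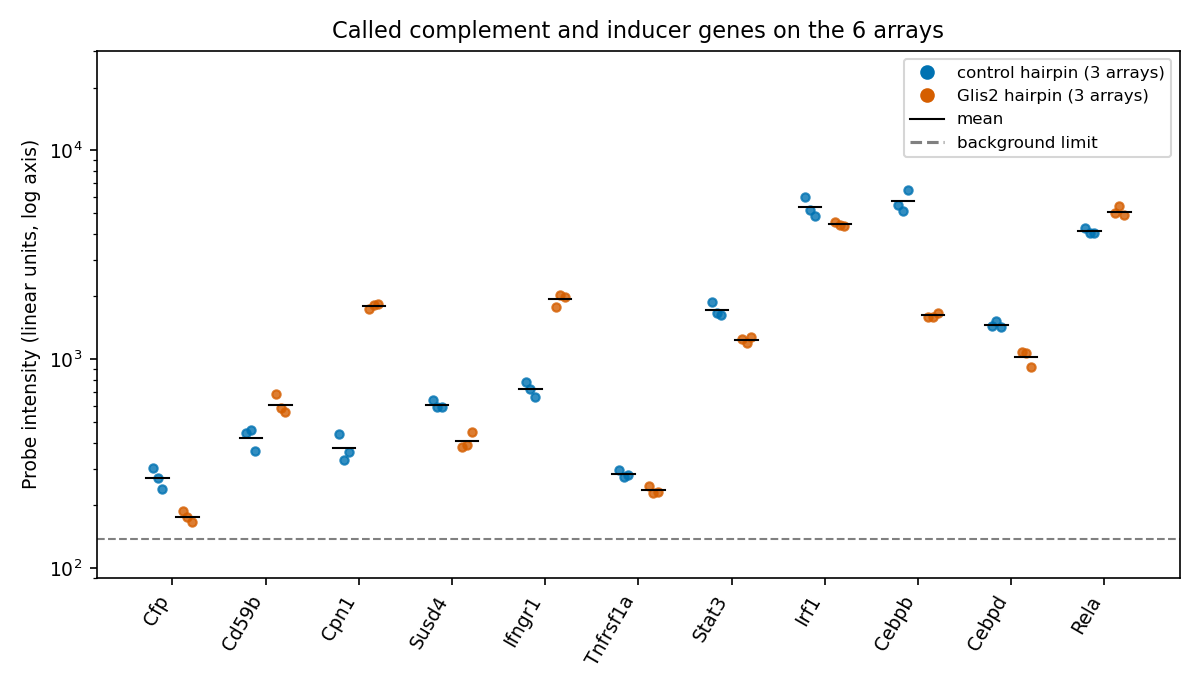
Intensity (linear units, log axis) of the 11 called genes of the 6 lists, by brightest probe, on 3 control arrays (blue) and 3 knockdown arrays (orange), with group means as black lines and the background limit of 139 dashed. The groups overlap for none of the 11, but these were picked by limma's call on the same arrays, so nothing is read from this. Over all genes 32.3% do not overlap. The mean of Cpn1 goes from 377 to 1802 and that of Cebpb from 5713 to 1622.

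The genes around Masp1 were examined in the order of the RefSeq table of GRCm38.p6, which places Masp1 on chromosome 16 between St6gal1 and Bcl6 among genes above background. Of the 24 nearest such genes, 12 on each side, 11 were called lower and 4 higher, with a median log2 difference of -0.15; over all genes above background 22.2% were called lower and 21.5% higher. St6gal1 and Rfc4 on 1 side had -0.28 and -0.33, and Bcl6, Lpp, Tprg and P3h2 on the other had -0.46, -0.40, -0.60 and -0.54. Next after Rfc4 lay Eif4a2 and Tbccd1, at -0.10 and 0.12 and not called, and next after P3h2 lay Cldn1, at -1.16 and called lower. Farther out on the side of Rfc4, Tmem41a and Fam131a were called higher, at 0.36 and 0.48. Etv5 and Psmd2 on that side were called lower, at -0.44 and -0.30. Farther out on the side of Cldn1, Hes1 and Atp13a3 were called lower, at -0.47 and -0.40. Mb21d2 and Tmem44 on that side were called higher, at 2.74 and 0.40. The differences of the neighbours ran from -1.16 to 2.74, the highest being Mb21d2, so that none was as low as Masp1 at -3.77. The median around Cd59a on chromosome 2 was -0.09, with 2 called higher, Cd59b among them, and 7 lower, beside 0.24 and 0.53 for Cd59a and Cd59b. Around the components at background the medians ran from -0.17 for Cd55 to 0.03 for Masp2. The part of neighbouring genes in the value of Masp1 was not tested.

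**Figure D4:**
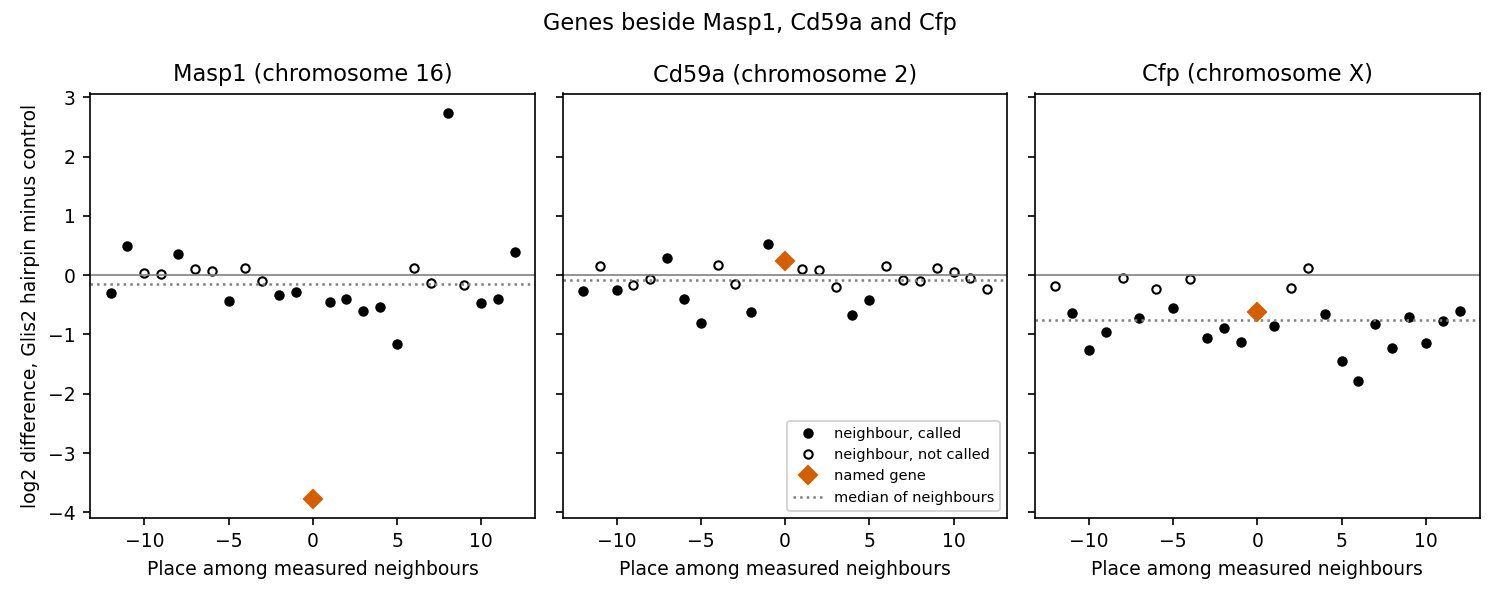
Log2 difference between knockdown and control for the 24 nearest genes above background beside Masp1, Cd59a and Cfp, by place in gene order (x axis, 0 is the named gene, shown as a diamond); filled points are called genes and the dotted line is the neighbours' median. Masp1 lies at -3.77 with a neighbour median of -0.15, while Cfp lies at -0.62 with a median of -0.75.

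The genes whose values over the 6 arrays were most like those of Masp1 were found by Euclidean distance between log2 values, each centred on the gene's own mean, among 9516 genes above background. They were Mmp13, a collagenase (distance 0.30), Itm2a (0.37), Tns4 (0.62), Arg1, the urea-cycle arginase (0.71), and Megf10, an engulfment receptor (0.76). With 2 groups of 3 arrays this measure reflects mainly the size of the difference between the groups, which was -3.77, -3.95, -3.31, -3.26 and -3.16 for the 5 genes. Mmp13 had 3837, 3499 and 2664 in control and 231, 226 and 270 in knockdown cells. By the size of its difference Masp1 was number 5 from the lowest of the 9516 genes, and Cpn1 was number 27 from the highest.

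Markers of cells that could contribute complement transcripts were set beside Masp1. The proximal tubule markers summed to between 9881 and 11261 in control and between 1010 and 1232 in knockdown arrays, and this rested on Aqp1, which went from 9162 to 10539 in control to 289 to 480 in knockdown arrays. Of 6 fibroblast markers, Dcn had 310, 256 and 258 in control and 123, 136 and 158 in knockdown cells, where 2 arrays were under the limit, and Col1a2 had 103, 112 and 122 against 129, 141 and 134, under the limit on 5 of 6 arrays. Limma called the first lower and the second higher, while Pdgfra, Pdgfrb, Lum and Col1a1 were at background. The summed level of all 6 fibroblast markers, with background included, was 846 to 876 in control and 719 to 770 in knockdown arrays. Of 5 macrophage markers, Csf1r rose by 0.44, Cd14 fell by 0.38, and Ptprc, Adgre1 and Lyz2 were at background. The summed level of all 5 macrophage markers, with background included, was 1187 to 1335 in control and 1069 to 1246 in knockdown arrays. The part of any such cells in the values of Masp1 was not tested.

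Promoter sequences from RefSeq, on build GRCm38.p6, were searched for short motifs, each window running from 250 bases before to 50 after a gene's start. Entries matched 5 of the 9 components (Masp2, C1ra, C3, Cd55 and Cd59a). The motifs were a GLI type site (GACCACCCA), a GLIS type site (TGGGGGGT), an NF-kappaB site, an interferon-stimulated response element, a gamma-activated sequence (TTCNNNGAA) and a C/EBP site (TTNNGCAA), each searched on both strands. Of 32851 promoters, 0.253%, 1.53%, 1.47%, 3.44%, 8.30% and 10.8% respectively held a match. The windows of Cd59a and Susd4 are shown 5′ to 3′ with matches in capitals: Cd59a as a component above background on all 6 arrays, and Susd4 for its GLIS type match.
Cd59a chr2:104095551-104095850, plus strand: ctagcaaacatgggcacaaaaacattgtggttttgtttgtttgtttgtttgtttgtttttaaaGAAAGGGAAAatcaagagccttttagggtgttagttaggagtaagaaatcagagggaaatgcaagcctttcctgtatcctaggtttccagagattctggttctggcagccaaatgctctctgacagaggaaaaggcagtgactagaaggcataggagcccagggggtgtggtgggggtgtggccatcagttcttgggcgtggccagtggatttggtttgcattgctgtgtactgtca
Susd4 chr1:182764646-182764945, plus strand: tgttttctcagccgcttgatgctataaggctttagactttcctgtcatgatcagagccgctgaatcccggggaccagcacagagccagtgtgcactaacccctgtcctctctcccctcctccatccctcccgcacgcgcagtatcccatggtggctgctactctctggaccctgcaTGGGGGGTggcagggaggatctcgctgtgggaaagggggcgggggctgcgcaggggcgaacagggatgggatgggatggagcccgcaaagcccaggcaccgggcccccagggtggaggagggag

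Cd59a held 1 match, to the interferon-stimulated response element at position -187 from the start. C3 held 1 match, to the C/EBP motif at -45. C1ra held a C/EBP match at 17 and a gamma-activated sequence at 33, Masp2 a gamma-activated sequence at -53, and Cd55 none of the 6. The GLIS type match of Susd4 lay at -74 in the second of its 2 windows. Cpn1, Cd59b, Cfp, Ifngr1, Cebpb and Stat3 had no match in their windows. A match is a description of letters and not evidence of binding.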

How the data were processed

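RNA from 6 arrays of tubular cells was analysed, 3 per group. The values deposited by the authors are linear intensities, 1 for each probe on each array; per the labels the arrays were Illumina with Cy3 label. Software, background handling and normalization were not given in the sources used here. The intensities show that the arrays shared 1 distribution (log2 medians within 0.00029, range 85.4 to 52227), so values were floored at 16, which altered none, and taken to log2 with no further normalization. Of 45281 probes 34885 had 1 gene symbol, 18 several and 10378 none in GEO's platform annotation; 34807 matched RefSeq by gene ID, with 0 symbols changed. Each of 19057 genes was represented by its brightest probe over the 6 arrays.

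The 2 groups were compared in R 4.3.3 with limma 3.58.1 (lmFit, eBayes), with Benjamini-Hochberg adjustment over all genes at 0.05, and a gene is called above background by the mean of its probe over the 6 arrays where no array is named; the fit was tested on simulated data. Precision is limited by the number of arrays. The genes described, the lists, the background limit and the rule for named genes were chosen with earlier results of these data known. That rule took Glis2, every probe of the 9 genes, called genes of the 6 lists, the 5 genes most like Masp1, and called cell type markers. Alternatives were quantile normalization, a replicate block, median centring, an offset of 50, background subtraction, normexp, the mean of probes, every probe on its own, genes above background only, eBayes with trend and robust variance, and leaving out each array. Marker lists also held other tubule and podocyte genes, of which Podxl rose by 0.39 and the others were not called.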

Additional observations from a re-analysis of the deposited data

How the results depend on the processing

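The Masp1 difference kept its sign under all 12 alternatives run for it. It was -3.54 with an offset of 50, -4.52 with background subtracted, -4.22 with normexp and -1.43 with the mean of its probes, 2 of which are at or near background; without 1 array it ran from -3.84 to -3.69. Limma called 4291 genes, and 2633 with background subtracted, 2567 with normexp, 7065 of 45281 when every probe was tested on its own, and 3754 to 3984 without 1 array. Factors that raise complement transcription were called in 7 cases, in 4 with normexp and in 4 to 6 without 1 array. The 49 further complement genes gave 3 to 6 calls over the alternatives that tested all 49, against 4. With genes above background only there were 4 calls among 10 genes, and with every probe on its own 5 among 85 probes. Of 11 named genes 7 kept their calls under all 15 alternatives run for them, and 0 values reversed. Among the alternatives, quantile normalization and median centring could change little, because the arrays already shared 1 distribution. Both gave 4291 called genes and a Masp1 difference of -3.77, as without them. With the replicate block limma called 4130 genes, 4 of the 49 and 7 of the factors. The correlations of deviations between arrays with the same number were -0.088, -0.042 and -0.051. No shared deviation was thus seen, but with 3 arrays per group this cannot show whether the samples were paired. Signal near background limits what can be said of Masp2, C4b, C1ra, Cfb, Cd55 and Serping1.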
